A study of Mus with 6 samples.

Results

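The spliceosome genes described here are the 125 genes, of 20893 in the deposited expression table, whose KEGG pathway annotation lists the spliceosome (mmu03040), without the 5 heat shock 70 genes that share the entry. They were measured by RNA sequencing in cardiac microvascular endothelial cells of mice, isolated with magnetic beads as CD45-negative and CD31-positive cells. Infarction had been induced in all mice, WT and KO alike, by tying off the left coronary artery. The 3 wild-type (WT) libraries, replicates 2, 3 and 4, were compared with 3 libraries of the same numbers from mice lacking Ccl28 (KO). The genotype field names Ccl28-KO for KO replicate 2 but Ccl29-KO and Ccl30-KO for KO replicates 3 and 4, against their titles, and the titles were followed. Strain, sex, age and time after ligation are not given in the sources used here, and nothing says whether a library came from 1 animal or from pooled animals. P-values therefore measure the spread between these libraries, which may be technical.

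The spliceosome removes introns from pre-mRNA. Its core is built from small nuclear ribonucleoproteins (snRNPs), each a small RNA wrapped by a ring of Sm or LSm proteins and joined by particle-specific proteins. RNA helicases remodel the assembly at each step and proofread it, and SR proteins, which carry arginine-serine repeats, bind exons and recruit the core to splice sites. Nearly all multi-exon genes of every cell type, endothelium included, depend on these proteins.

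Levels are FPKM, fragments scaled to exonic length and library size, so that levels of different genes can be compared per length. Reads assigned to genes numbered 36004457 to 40500067 per library, and the tested spliceosome genes had at least 135 reads in every library. A log2 fold change compares KO with WT as log2(FPKM + 1), which understates the change of low genes. It was tested with limma over all 10806 genes with at least 1 FPKM in at least 3 libraries, and a gene is said to rise or fall where its Benjamini-Hochberg adjusted p was under 0.05. Ccl28 had 16, 11 and 24 reads in WT replicates 2, 3 and 4 and 0 reads in each KO library (exact two-sided permutation p = 0.1, the smallest that 3 against 3 libraries allow). The 7 endothelial markers examined summed to 3407 to 3490 FPKM in WT and 3187 to 3453 in KO, with 2 higher (Egfl7 and Emcn) and 2 lower (Cdh5 at -0.43 and Kdr at -0.81 on the log2 scale). Summed markers of leukocytes were 89.8 to 201.1 FPKM in WT and 228.4 to 321.7 in KO. Of these 7, with a median exonic length of 1057 nt, 6 were higher. Mural cell markers summed to 316.6 to 419.3 FPKM in WT and 219.1 to 341.7 in KO. Of these 5, with a median of 6109 nt, 4 were lower. Those not called were Ptprc, the CD45 gene (5872 nt, log2 fold change -0.03), and Acta2 (2834 nt, -0.001). The shares over all tested genes were 18.3% higher and 25.8% lower. With the length trend described below removed, 4 leukocyte markers were higher and 4 mural markers lower. Of the endothelial markers 0 were then higher, with Egfl7 and Emcn no longer called, and 2 were lower, again Cdh5 and Kdr. In that fit 10.0% of all tested genes were higher and 9.17% lower. Fibroblast markers summed to 14.9 to 16.4 FPKM in WT and 8.42 to 9.1 in KO. Of the 3 tested, 3 were lower, and 2 with the length trend removed. No marker was at 0 in all 6 libraries. The part of these cells in the results was not tested, and in such bulk preparations fewer cells of a type and less RNA per cell cannot be told apart.

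Of the 125 spliceosome genes 122 passed the expression filter. The others were Thoc2l, a copy of Thoc2 at 0.969, 0.982 and 1.28 FPKM in WT replicates 2, 3 and 4 and 0.635, 0.699 and 0.598 in KO, and the near-silent Eif4a3l1 and Hnrnpa1l2-ps2. Among the 122, 34 rose (27.9%) and 21 fell (17.2%) in KO, against a background of 18.3% higher and 25.8% lower (44.2% in either direction) over all tested genes. The median log2 fold change was 0.07, beside -0.03 over all tested genes. With median-ratio scaling of the libraries the split was 49 higher and 15 lower (over all tested genes 23.8% and 22.1%, 46.0% in either direction), and with limma-voom on recovered reads 48 higher and 19 lower (over all tested genes 22.4% and 24.9% in that test). Changes were modest on the log2(FPKM + 1) scale: 114 of 122 lay within 0.5 of 0 and 0 reached 1. As a plain ratio of mean FPKM, without the added 1, Thoc2 fell 2.05-fold. Of the 34 that rose 21, and of the 21 that fell 11, were called in all 6 fits that leave out a library. Without WT replicate 4 the counts were 24 and 11, and without KO replicate 4 the number lower was 13.

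Counts differed among the protein families, which also differed in transcript length. In the Sm, LSm and snRNP-named families together, 16 of 21 genes rose (76.2%, beside the background of 18.3%) and 0 fell in limma. In the helicase and SR protein families together, 0 of 23 rose and 7 fell (30.4%, beside the background of 25.8%). The 7 were 5 of 12 helicases (41.7%) and 2 of 11 SR genes (18.2%). The first set had exonic lengths of 393 to 4924 nt with a median of 837 nt, the second 1162 to 6760 nt with a median of 3676 nt. Exonic length is the length that the FPKM values imply for each gene.

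The Sm proteins form the ring around the U1, U2, U4 and U5 small nuclear RNAs. All 7 Sm genes had every KO library above every WT library (background 22.8% of tested genes), and 6 of the 7 rose. The median of the ring was 0.42 on the log2 scale. Snrpe, on chromosome 1 from 133603871 to 133610280 (GRCm38) with 492 nt of exons, had 70.2, 61.0 and 60.7 FPKM in WT replicates 2, 3 and 4 and 98.1, 95.3 and 111.6 in KO. The lowest KO library was thus well above the highest WT library, and Snrpe rose 1.59-fold (log2 fold change 0.66, SE 0.09, adjusted p = 0.000624), the largest increase among the spliceosome genes tested. Snrpd2, whose product pairs with that of Snrpd1 in ring assembly, rose from 109.8 ± 10.9 to 164 ± 11.8 FPKM (SD, n = 3; adjusted p = 0.00104 in limma). Snrpg (chromosome 6 from 86371540 to 86378902), the shortest spliceosome gene tested at 393 nt, had 170.1, 150.4 and 143.2 FPKM in WT replicates 2, 3 and 4 and 209.7, 209.9 and 199.2 in KO. Its groups were separate, with a ratio of 1.33 (log2 fold change 0.42, adjusted p = 0.00277 in limma). Snrpb, at 1434 nt the longest of the ring genes, went from 144.1 ± 9.7 to 161.5 ± 1.51 FPKM (SD, n = 3) and did not pass (adjusted p = 0.083 in limma). Levels within the ring spanned 39.1 to 154.6 FPKM in WT, with Snrpf lowest and Snrpg highest, and the same genes were lowest and highest in KO (52.8 and 206.3 FPKM).

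LSm proteins form the related ring on U6 RNA. Of the 7 genes, 5 rose (71.4%, beside 18.3% of all tested genes) and 0 fell in limma, with a median log2 fold change of 0.44. Lsm7 (603 nt) had 38.2, 35.5 and 41.9 FPKM in WT replicates 2, 3 and 4 and 50.7, 54.1 and 52.9 in KO, groups that did not overlap (adjusted p = 0.00184 in limma). Lsm3 (631 nt) rose 1.46-fold, from 33.0 ± 4.91 to 48.0 ± 2.94 FPKM (SD, n = 3). Lsm5 rose 1.57-fold, and Lsm2 and Lsm4 1.36-fold and 1.20-fold. The Lsm2 call was lost without WT replicate 3, WT replicate 4 or KO replicate 4, and the Lsm4 call without WT replicate 4, KO replicate 2 or KO replicate 3 (highest adjusted p 0.0712 and 0.0778 in limma). Lsm8, the subunit that distinguishes the nuclear ring from the cytoplasmic decay ring, differed from these short relatives. It had 26.5, 23.9 and 28.2 FPKM in WT replicates 2, 3 and 4 and 26.8, 29.5 and 29.9 in KO, so its groups overlapped (log2 fold change 0.13, adjusted p = 0.224 in limma). Lsm6, which has the longest exons of the list (4147 nt), also had overlapping groups, with a log2 fold change of 0.22.

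The genes named for their snRNP had 5 of 7 members higher (71.4%, beside 18.3% of all tested genes) and 0 lower in limma, with a median of 0.26. Snrpc, which encodes the U1 C protein that contacts the pairing of U1 RNA with the 5′ splice site, went from 61.1 ± 7.32 to 79.8 ± 2.12 FPKM (SD, n = 3). Snrnp27, a protein of the U4/U6.U5 tri-snRNP, had 41.1, 33.1 and 35.8 FPKM in WT replicates 2, 3 and 4 and 50.1, 47.0 and 55.6 in KO, with no overlap (adjusted p = 0.00406 in limma). Snrpa and Snrpa1, which encode proteins of U1 and U2, rose 1.17-fold and 1.26-fold, and Snrnp40 of U5 rose 1.21-fold. The Snrpa call stood in only 1 of the 6 fits that leave out a library, the one without KO replicate 4, and the Snrnp40 call was lost without WT replicate 3 or KO replicate 3 (highest adjusted p 0.0803 and 0.0543 in limma). Snrnp70, the U1 70K protein gene, was the one with a negative value and by far the longest, at 4924 nt. Its levels were 32.6, 42.9 and 39.6 FPKM in WT replicates 2, 3 and 4 and 33.3, 35.3 and 35.5 in KO, overlapping between the groups (log2 fold change -0.13, adjusted p = 0.292 in limma).

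**Figure D1:**
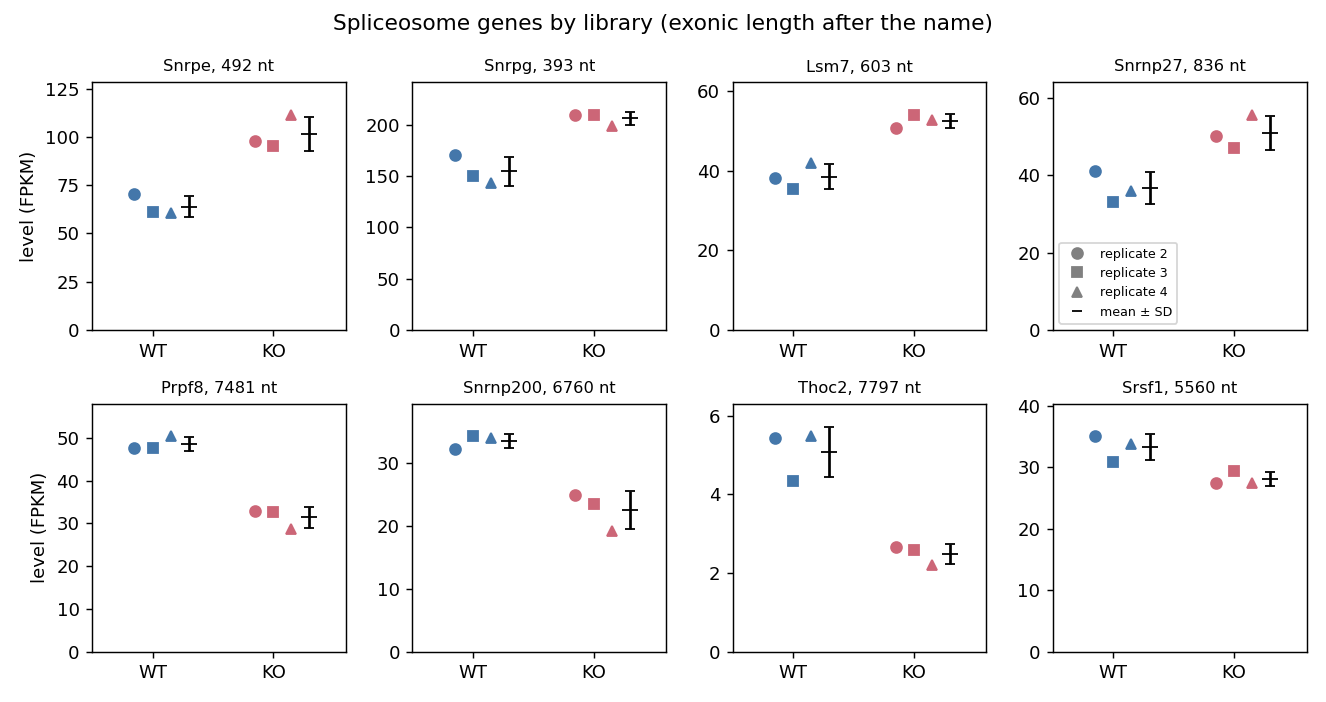
Level in FPKM of 8 spliceosome genes in each library, with the mean and SD of each genotype beside the points and the exonic length in the panel title. Snrpe, Snrpg, Lsm7 and Snrnp27 had every KO library above every WT library, and Prpf8, Snrnp200, Thoc2 and Srsf1 every KO library below.

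Helicases use ATP to unwind RNA or strip proteins from it. Of the 12 helicase genes 0 rose and 5 fell in limma, with a median log2 fold change of -0.20, and in 10 of the 12 every KO library was below every WT library (background 31.9%). Snrnp200, the Brr2 helicase that unwinds the U4/U6 duplex, lies on chromosome 2 from 127208386 to 127240453 with 6760 nt of exons. It had 32.2, 34.2 and 33.9 FPKM in WT replicates 2, 3 and 4 and 24.9, 23.4 and 19.2 in KO. KO replicate 4 was the lowest library and the groups were separate, with a log2 fold change of -0.56 (SE 0.10, adjusted p = 0.00172 in limma). Ddx46, the Prp5 helicase of early U2 binding, fell 1.39-fold, from 17.6 ± 1.13 to 12.6 ± 1.19 FPKM (SD, n = 3). Ddx23, the Prp28 helicase that releases U1, fell 1.21-fold, as did Ddx42, and Dhx15, the Prp43 helicase of spliceosome disassembly, fell 1.18-fold. The Dhx15 and Ddx42 calls were lost without WT replicate 2, WT replicate 4, KO replicate 2 or KO replicate 4 (highest adjusted p 0.12 and 0.104 in limma), and that of Dhx15 also without KO replicate 3. The helicases with a positive value were the 2 with the shortest exons. Eif4a3, the anchor of the exon junction complex (1463 nt), had 95.3, 94.3 and 89.8 FPKM in WT replicates 2, 3 and 4 and 104.6, 100.5 and 108.8 in KO, just apart but not past the test (adjusted p = 0.0656 in limma). Ddx39b (1758 nt), of branch site recognition and mRNA export, had a log2 fold change of 0.04. Ddx5, the most abundant spliceosome gene in WT, went from 239.6 ± 12.2 to 219.3 ± 3.36 FPKM (SD, n = 3; adjusted p = 0.162 in limma).

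SR protein genes did not move as a family. Of 11, 0 rose and 2 fell in limma, and the median log2 fold change was 0.005 (-0.02 with quantile normalization). Srsf1, a splicing activator bound to exonic enhancers (chromosome 11 from 88046499 to 88053757, 5560 nt), had 35.1, 31.0 and 33.9 FPKM in WT replicates 2, 3 and 4 and 27.4, 29.4 and 27.4 in KO. The groups were separate, with a log2 fold change of -0.24 (adjusted p = 0.0272 in limma), but the call was lost without WT replicate 2, WT replicate 4, KO replicate 2 or KO replicate 4 (highest adjusted p 0.0959). Tra2a had 22.9, 20.5 and 25.2 FPKM in WT replicates 2, 3 and 4 and 15.6, 19.2 and 17.7 in KO, again without overlap (log2 fold change -0.37, adjusted p = 0.0147 in limma). That call was lost without WT replicate 4 or KO replicate 2 (highest adjusted p 0.0669). Srsf5, the most abundant SR gene, had 124.4, 156.8 and 148 FPKM in WT replicates 2, 3 and 4 and 148.3, 128.9 and 152.7 in KO, fully overlapping. The remaining values lay between -0.15 for Srsf6 and 0.22 for Srsf9, the SR gene with the shortest exons (1162 nt).

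**Figure D2:**
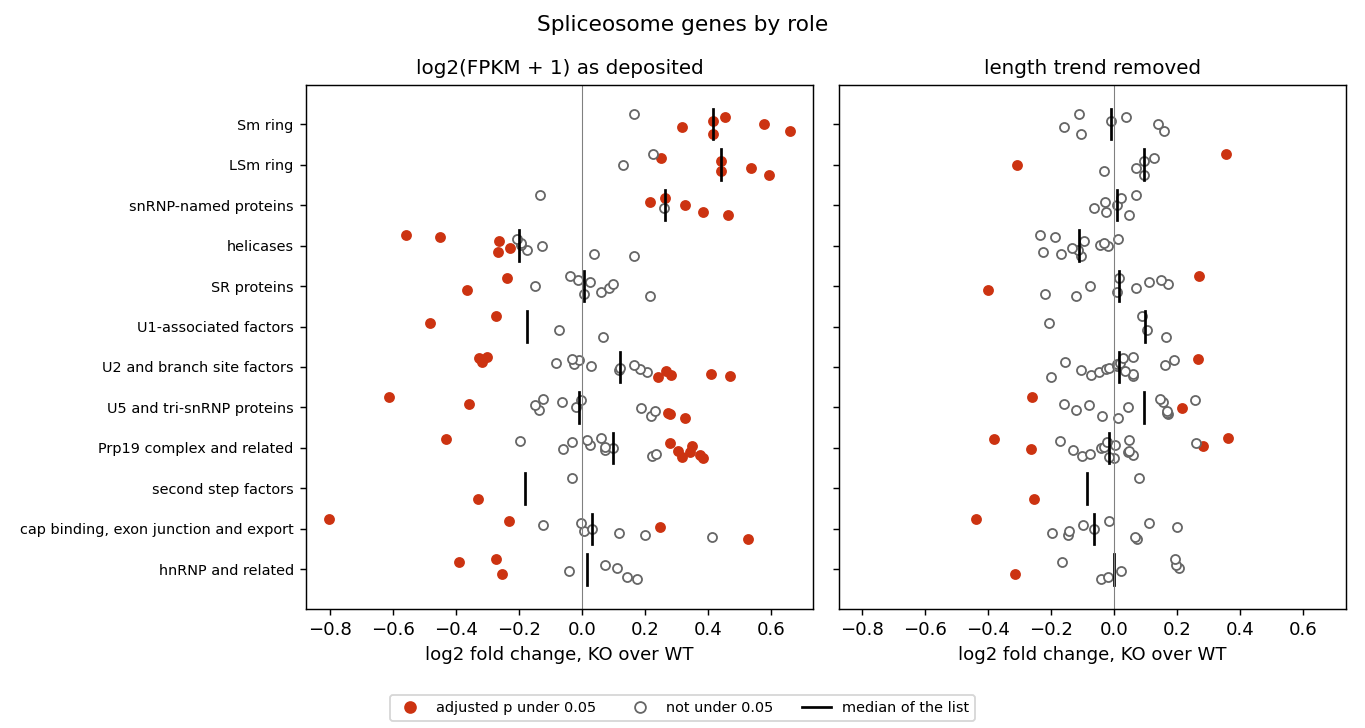
Log2 fold change of each tested spliceosome gene by role, before (left) and after (right) removal of the length trend of each library. Filled points passed an adjusted p of 0.05 and bars mark medians: the Sm, LSm and snRNP-named lists had medians of 0.42, 0.44 and 0.26 on the left and of -0.009, 0.09 and 0.009 on the right.

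Of the 78 tested genes outside those families 18 rose (23.1%) and 14 fell (17.9%), beside 18.3% and 25.8% of all tested genes. Among 18 factors of U2 and the branch site 5 rose (27.8%) and 3 fell (16.7%). The risers were short: U2af1l4, a relative of the 3′ splice site binder U2af1, rose 1.39-fold (864 nt, adjusted p = 0.00127 in limma), Sf3b6, which lies at the branch point adenosine, 1.33-fold (1116 nt), and Sf3b5 1.19-fold (734 nt). U2surp, the longest of the list at 7736 nt, fell 1.27-fold. The Sf3b5 call was lost without WT replicate 4, and the U2surp call without WT replicate 2, WT replicate 4, KO replicate 3 or KO replicate 4 (highest adjusted p 0.06 and 0.107 in limma). Sf3b1, the scaffold of branch site recognition, fell from 39.2 ± 0.0782 to 31.1 ± 2.91 FPKM (SD, n = 3; 7507 nt, adjusted p = 0.00909 in limma) and was named after its values were seen. U2af1l4 overlaps Psenen in the RefSeq annotation, and whether reads were counted by strand is not given in the sources used here.

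Of the 14 U5 and tri-snRNP genes 3 rose (21.4%) and 2 fell (14.3%), beside 18.3% and 25.8% of all tested genes. Prpf8, the protein at the catalytic centre of the spliceosome, was the clearest decrease among them. It lies on chromosome 11 from 75486777 to 75509447 with 7481 nt of exons, and had 47.6, 47.5 and 50.3 FPKM in WT replicates 2, 3 and 4 and 33.0, 32.7 and 28.6 in KO. All KO libraries were far below all WT libraries, a 1.54-fold decrease (log2 fold change -0.61, SE 0.08, adjusted p = 0.000553 in limma). Prpf38b fell 1.30-fold (4889 nt). Snu13, the short U4 RNA binder (1257 nt), rose from 57.8 ± 5.2 to 72.7 ± 2.32 FPKM (SD, n = 3). In the U1-associated list 2 of 4 fell (50%) and 0 rose in limma, and Rbm25 fell 1.44-fold. Prpf40b, the shortest of that list, had overlapping groups.

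Of 19 genes of the Prp19 complex and its partners, which stabilise the active site, 7 rose (36.8%) and 1 fell (5.26%). The background was 18.3% higher and 25.8% lower. Pqbp1, Bcas2 and Bud31 rose 1.28-fold, 1.25-fold and 1.31-fold, with exons of 974 to 1519 nt. Prpf19, the ubiquitin ligase that names the complex and the longest of the list (6333 nt), had 20.8, 18.3 and 19.2 FPKM in WT replicates 2, 3 and 4 and 21.2, 20.1 and 19.6 in KO, with overlap (adjusted p = 0.532 in limma). Of the second step factors, Prpf18 fell 1.28-fold and Slu7 was at -0.03 on the log2 scale. In the cap binding, exon junction and export list 2 of 11 tested genes rose and 2 fell (18.2% each). Magoh, an exon junction protein (692 nt), had 56.1, 44.9 and 45.0 FPKM in WT replicates 2, 3 and 4 and 75.1, 65.7 and 69.9 in KO, without overlap. Its near-identical copy Magohb, at 4.25 FPKM in WT, may share reads with it.

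Thoc2, the scaffold of the THO complex that couples splicing to export, had the largest decrease among the spliceosome genes tested. It lies on the X chromosome from 41794992 to 41911937 with 7797 nt of exons, and had 5.42, 4.34 and 5.48 FPKM in WT replicates 2, 3 and 4 and 2.66, 2.58 and 2.2 in KO. The lowest WT library was far above the highest KO library, a 2.05-fold decrease (log2 fold change -0.80, adjusted p = 0.000704 in limma). The Y-linked Ddx3y was at 8.33 to 9.92 FPKM in WT and 5.4 to 6.08 in KO. The other Y-linked genes examined, Eif2s3y, Kdm5d and Uty, were present in every library with overlapping groups. Eif2s3y was at 3.4 to 4.2 FPKM in WT and 3.34 to 3.72 in KO (log2 fold change -0.09, adjusted p = 0.489 in limma). Xist was at 0.00276 FPKM in WT replicate 2 and listed at 0 in the other libraries. Reads could be split between Thoc2 and its copy Thoc2l. Among 8 hnRNP genes, which package nascent RNA, 3 fell (37.5%, beside 25.8% of all tested genes) and 0 rose in limma. Hnrnpa3 fell 1.33-fold, Hnrnpu 1.22-fold and Hnrnpm, named after its values were seen, 1.19-fold. The Hnrnpu and Hnrnpm calls were lost without WT replicate 2, WT replicate 4 or KO replicate 4 (highest adjusted p 0.0822 and 0.0781 in limma). Pcbp1, the shortest of them, did not pass (log2 fold change 0.17, adjusted p = 0.0593 in limma).

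Length and fold change ran together across the spliceosome genes. Spearman's rho between exonic length and log2 fold change was -0.85 over the 122 genes and -0.72 over all 10806 tested genes, which share the same 6 libraries and are not independent replicates. Inside the helicase family it was -0.71 (12 genes), and -0.83 over the 78 genes outside the Sm, LSm, snRNP-named, helicase and SR families. When the tested genes were divided by exonic length into 5 classes of equal size, the 47 spliceosome genes of the shortest class (up to 1791 nt) had a median log2 fold change of 0.31, beside 0.35 for all 2162 genes of that class. In the 4 longer classes the spliceosome medians were 0.10, -0.04, -0.19 and -0.29, beside 0.11, -0.05, -0.20 and -0.38 over all genes of each class. Of the 47 short genes 28 rose and 0 fell, and of the 10 in the longest class (from 6233 nt) 7 fell and 0 rose in limma. Over all genes of the shortest class 59.8% rose, close to the 59.6% of the spliceosome genes, and over all genes of the longest class 66.2% fell. Inside the shortest class the families differed in their counts, but also in length. Its 18 Sm, LSm and snRNP-named genes had 393 to 1591 nt of exons, and its 4 helicase and SR genes 1162 to 1758 nt. Of the 18 genes 15 rose (83.3%, median 0.42), and of the 4 genes 0 (median 0.10). With the length trend removed, as described below, these medians were -0.0004 and -0.15.

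**Figure D3:**
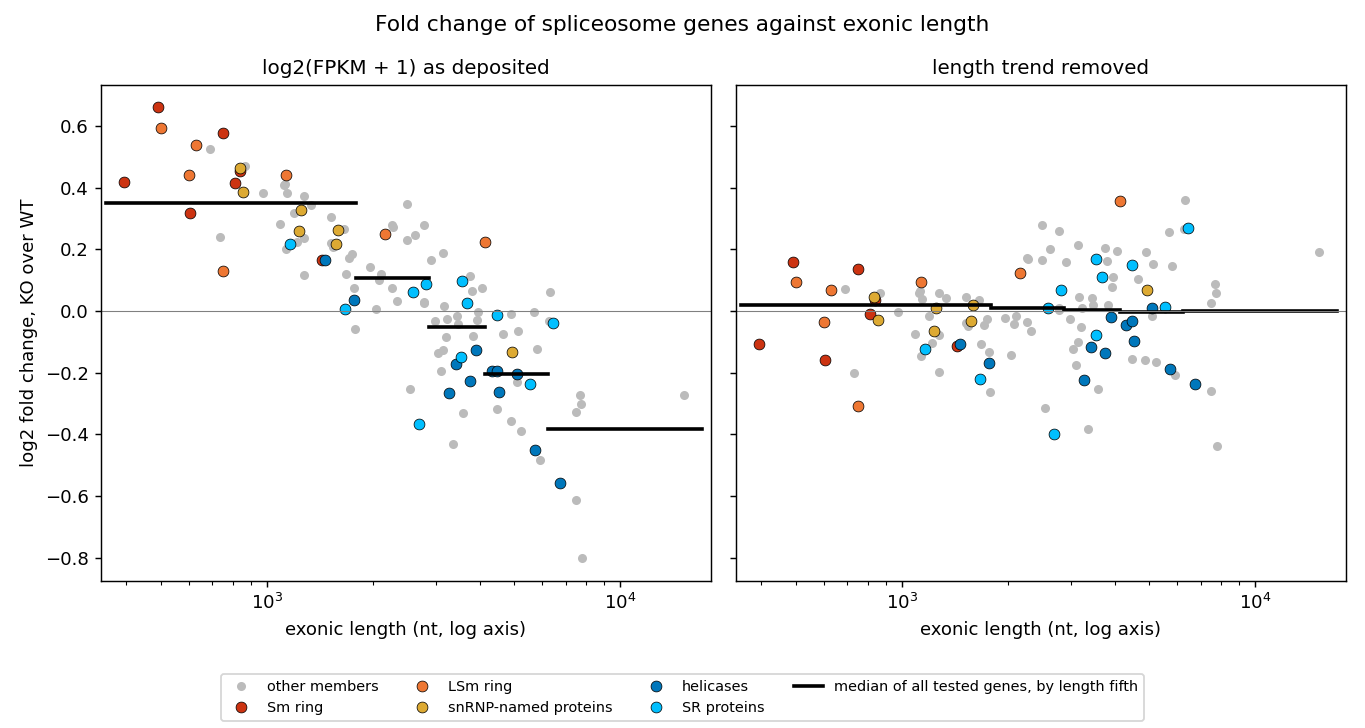
Log2 fold change of the 122 tested spliceosome genes (points, coloured by family) against exonic length on a log axis, before (left) and after (right) removal of the length trend, with the median of all tested genes in each of 5 length classes as black lines. On the left the points descend from left to right along the black lines (rho -0.85), and on the right they scatter around 0 (rho 0.13).

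The same relation was present library by library. The slope of a library is the change of its log2 level, relative to the mean of all libraries, per doubling of exonic length. Over all tested genes it was 0.101, 0.108 and 0.135 in WT replicates 2, 3 and 4 and -0.0985, -0.0911 and -0.155 in KO. Over the 122 spliceosome genes alone it was 0.0873, 0.106 and 0.137 in WT and -0.0838, -0.0922 and -0.154 in KO. The mean log2 level of the Sm, LSm and snRNP-named genes minus that of the helicase and SR genes was 0.199, 0.097 and 0.0738 in WT replicates 2, 3 and 4 and 0.519, 0.577 and 0.693 in KO. The groups did not overlap, and the difference between genotypes, 0.47, was several times the SD within WT (0.066) or KO (0.088). In each genotype replicate 4 had the steepest slope and the most extreme family difference. In these libraries genotype and the length trend cannot be told apart.

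**Figure D4:**
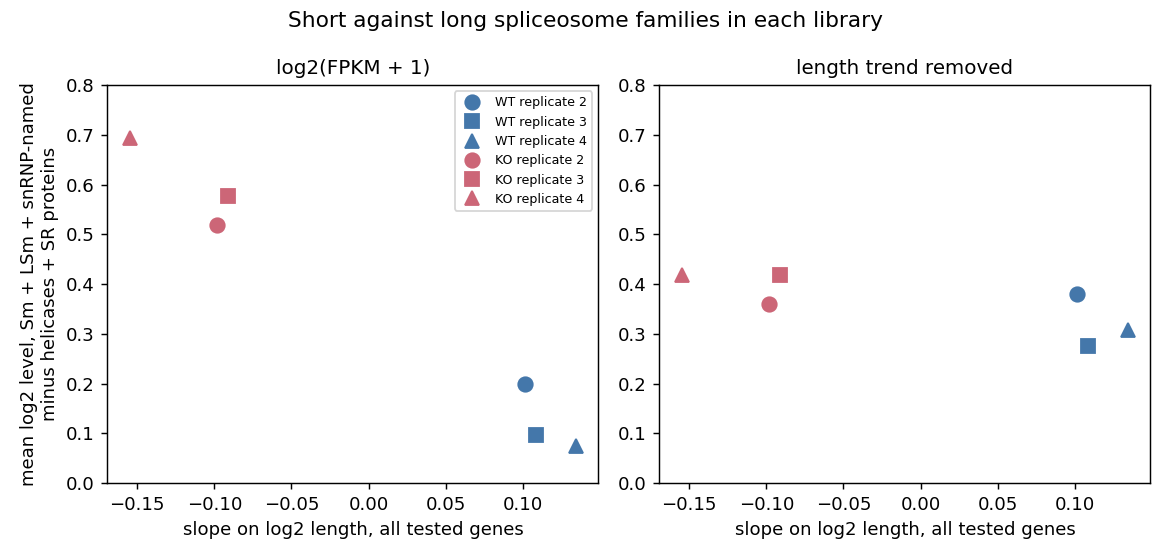
Mean log2 level of the Sm, LSm and snRNP-named genes minus that of the helicase and SR genes in each library, against the library's slope on log2 exonic length over all tested genes. With log2(FPKM + 1) (left) WT lies at 0.0738 to 0.199 and KO at 0.519 to 0.693, and with the length trend removed (right) WT lies at 0.275 to 0.38 and KO at 0.361 to 0.418.

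A smooth length trend, fitted on all tested genes, was then removed from each library. The family difference became 0.38, 0.275 and 0.308 in WT replicates 2, 3 and 4 and 0.361, 0.418 and 0.418 in KO. The groups now overlapped, and the difference between genotypes was 0.08. Of the 122 genes 6 were higher and 8 lower, against a background of 10.0% higher and 9.17% lower (19.2% in either direction) over all tested genes. Only 1 of the 34 risers and 6 of the 21 that fell kept their call and direction (2.94% and 28.6%), beside 26.9% of risers and 30.6% of decreases over all tested genes. Of the 16 Sm, LSm and snRNP-named genes that had risen, 0 kept the call in limma. Snrpe went to a log2 fold change of 0.16 (adjusted p = 0.0955) and Snrpg to -0.11 (adjusted p = 0.39). The helicase calls were lost too, with Snrnp200 at -0.24 (adjusted p = 0.0831) and Ddx46 at -0.19 (adjusted p = 0.101). Of the 12 helicases 0 were called in that fit. A negative value was found in 11 of them, beside 5230 of all 10806 tested genes. Their median was -0.11, beside 0.008 for all tested genes. The SR median was 0.01.

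The 14 genes called with the trend removed, 4.92% higher and 6.56% lower of the 122, are shares below the 10.0% and 9.17% of all tested genes, and those outside the naming rule were picked after their values were seen. The 6 that fell in both fits were Prpf8 (log2 fold change -0.26 with the trend removed, adjusted p = 0.0201), Thoc2 (-0.44, adjusted p = 0.0134), Tra2a (-0.40), Hnrnpm (-0.31), Prpf18 (-0.25) and Cdc40, the Prp17 second step factor (-0.38). Ccdc12 was the one that rose in both (0.28, adjusted p = 0.0457 in limma). Prpf19, whose FPKM hardly differed between genotypes, was high for its length: its log2 fold change with the trend removed was 0.36 (adjusted p = 0.00819 in limma), and it was called in all 6 fits that leave out a library. Lsm8 was low for its length (-0.31, adjusted p = 0.0274) and Lsm6 high (0.36, adjusted p = 0.0353), although they belong to the same ring. The other calls with the trend removed were Plrg1 as lower and U2af2, Srsf10 and Prpf31 as higher. All of these except Prpf19 lost their call without WT replicate 4, leaving 1 higher and 0 lower. Each of the 14 kept its sign in the 6 fits that leave out a library. Those fits reuse most of the libraries in which the 14 were picked, so the signs are no independent check.

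Splicing genes outside the KEGG entry were compared in the same test, from lists drawn up by function. Of 12 snRNP assembly genes 3 rose (25%) and 0 fell in limma (median 0.07), beside the background of 18.3% higher and 25.8% lower. The SMN complex gene Gemin7 (763 nt) rose from 67.6 ± 3.11 to 95.5 ± 8.14 FPKM (SD, n = 3), and Smn1, the SMN gene itself, from 14.3 ± 0.943 to 17.7 ± 0.81. With the length trend removed neither call held (Gemin7 at 0.05, adjusted p = 0.554, and Smn1 at 0.04, adjusted p = 0.779, in limma). In that fit 1 of the 12 was higher and 0 were lower. Of 9 minor spliceosome genes, which serve the rare U12-type introns, 3 rose, including Zcrb1 (938 nt), and 1 fell (33.3% and 11.1%). Zcrb1 lost its call with the trend removed (0.14, adjusted p = 0.3 in limma), while 1 of the 9 was higher and 1 lower. Of 6 tested SR protein kinases 1 rose (16.7%) and 0 fell in limma. With the trend removed 1, a different gene, was higher and 0 were lower. Of 13 tested tissue splicing regulators 0 rose and 8 fell in limma (61.5%), with a median of -0.60 and a median length of 7584 nt. Of all genes in the longest length class 66.2% fell. Son, a nuclear speckle protein, fell from 27.3 ± 1.51 to 16.8 ± 1.16 FPKM and Mbnl2, a muscleblind protein, from 28.9 ± 1.88 to 18.6 ± 0.263 (SD, n = 3). With the length trend removed 4 of these 13 fell and 1 rose (median -0.13), with Son at -0.27 and Mbnl2 at -0.42. In that fit 9.17% of all tested genes were lower and 10.0% higher. Of the 2161 genes in the longest length class 320 were lower and 346 higher.

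Of 124 spliceosome genes in the authors' deposited table, 48 were higher and 17 lower at q under 0.05, against 13.6% and 15.7% of the 17686 genes listed there. Those 17686 include genes of low level: only 10806 genes passed the expression filter used here, but 122 spliceosome genes did. The counts and these shares therefore come from unlike sets. The authors' deposited table gave Snrpe a log2 fold change of 0.73 and Prpf8 one of -0.57.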

How the data were processed

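Expression was measured by RNA sequencing (stranded mRNA kit, per the labels' protocols) from 3 WT and 3 KO preparations, grouped by sample title. The authors deposited a table of FPKM for each gene in every library. A second table deposited by the authors holds their DESeq2 comparison: per the file headers, a q-value and p-value, the log2 fold change, the fold change as a ratio, and the mean normalized signal of each group. Per the submitters' processing notes, which give no roles or order, GATK 4.0.11.0, DESeq2 1.22.1, featureCounts 1.6.2, Cufflinks, StringTie 1.3.4d, HISAT2 2.1.0 and fastp 0.19.3 were used with mm10.

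FPKM were set against the group means to recover whole reads (below 1000 reads, 100% came out whole to within 0.05) and the exonic length behind each FPKM. Genes were tested with limma 3.58.1 (R 4.3.3) on log2(FPKM + 1), with genotype only and Benjamini-Hochberg adjustment over all 10806 tested genes. For the length trend, a spline with 5 degrees of freedom on log2 length was fitted to each library and subtracted. Python 3.11.15 was used otherwise. Coordinates come from the RefSeq annotation of GRCm38.p6, where all 125 genes matched by gene ID. Chi-square per gene between replicates was 24 to 86.6, far beyond counting noise, and all 6 libraries were counted separately. This value cannot show whether libraries came from separate animals, because differences in preparation add to it too.

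Spliceosome genes were sorted into 12 role lists, and 4 genes stayed outside. The members, lists and settings were chosen with earlier results of these data known. In the Sm, LSm, snRNP-named, helicase and SR lists any gene could be named, with full values for the most abundant, the 2 with the smallest p and the one most against the list's median. In other lists the 2 with the smallest p, the longest and the shortest were named, except 1 gene that is not reported here. Other lists were snRNP assembly, SR protein kinases, minor spliceosome, tissue splicing regulators, and markers of endothelium, leukocytes, cardiomyocytes, fibroblasts, mural cells and cycling cells. Of 4 tested cardiomyocyte markers 1 fell, and 0 of 5 cycling markers passed in limma. Of the 125 genes, 33 overlap another RefSeq gene.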

Additional observations from a re-analysis of the deposited data

How the results depend on the processing

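The counts moved most when the length trend was removed. Tested genes higher went from 1982 to 1084 and lower from 2790 to 991, spliceosome genes higher from 34 to 6 and lower from 21 to 8, and the family difference between genotypes from 0.473 to 0.0778. A straight line in place of the spline, chosen after seeing the data, gave 1128, 1041, 7, 9 and 0.0727. Leaving out each library in turn gave 24 to 46 spliceosome genes higher and 11 to 22 lower, and with the length trend removed, also chosen after seeing the data, 1 to 5 higher and 0 to 8 lower: 3 higher without WT replicate 3, 3 and 4 without KO replicate 2, 1 and 2 without KO replicate 4, and 1 and 0 without WT replicate 4. With the length trend kept in, the family difference was 0.425 to 0.512 as each library was left out. Same-numbered WT and KO libraries had deviations correlated at -0.195, -0.349 and -0.222, and differently numbered ones at 0.00248 to 0.199. Deviations were taken from the means of groups of 3, so these correlations depend on each other. They cannot decide whether libraries of the same number share a batch or a pairing. The replicate block left 28 spliceosome genes higher and 13 lower, and with the length trend removed 1 and 0. Values changed sign with the spline, then the line, for the median of the Sm ring (-0.00943 and -0.00907), that of the U1-associated list (0.0954 and 0.0642), Snrpg (-0.106 and -0.247), Snrpb (-0.112 and -0.0698), Lsm7 (-0.0341 and -0.0815), Lsm8 (-0.309 and -0.32), Snrpc (-0.028 and -0.021), Snrnp70 (0.0681 and 0.040), Eif4a3 (-0.106 and -0.0632), Srsf5 (-0.222 and -0.181), U2surp (0.0583 and 0.0197), Sf3b5 (-0.202 and -0.216), Slu7 (0.0787 and 0.0675), Hnrnpu (0.192 and 0.274) and Pcbp1 (-0.044 and -0.00395). With the spline alone the Prp19 list median (-0.0161), Srsf1 (0.0137) and Bud31 (-0.00206) did so too. Medians close to 0 also changed sign: the U5 and tri-snRNP list (-0.0107 to 0.0944 and 0.0773, and 0.0861 with quantile normalization, 0.0418 with median-ratio scaling and 0.0391 with limma-voom), the cap binding, exon junction and export list (0.031 to -0.0644 and -0.0469), the hnRNP list (0.0159 to -0.000633 with the spline and -0.141 with quantile normalization) and the SR list (0.00547 to -0.0202 with quantile normalization). The U5, hnRNP and SR medians also changed sign without some single libraries. Slu7 was also positive with limma-voom (0.0202) and median-ratio scaling (0.0271), and Srsf5 (-0.174) and Pcbp1 (-0.026) were negative with quantile normalization. Leaving out each library in turn moved Slu7 over -0.0591 to 0.0231, Srsf5 over -0.0911 to 0.0794 and Prpf40b over -0.0492 to 0.175. Among the genes named here, median-ratio scaling lost the Dhx15, Ddx42, Srsf1 and Hnrnpm calls, and quantile normalization those of Snrpd3, Snrpa, Sf3b5 and U2surp. The cause was not tested.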
